A study of Mus musculus with 9 samples.

Results

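The genes described here are 8 imprinted genes linked with the quiescence of blood stem cells. Meg3, Rian, Mirg, H19 and Kcnq1ot1 are long noncoding RNAs, and Ndn, Grb10 and Impact encode proteins. They were chosen with earlier results of these data known and matched by symbol, and 7 of the 8 had a row among the 31053 genes of the count tables. Rian had no row in the tables used here and is not analysed here. Their RNA was counted in single LSK cells (Lin-, Sca1+, cKit+), the bone marrow fraction that holds stem cells and early progenitors, of C57BL/6 mice. The young group (3 samples, 10 to 12 weeks of age) and the aged group (3 samples, at least 80 weeks) received cyclodextrin, the solvent of the drug. The CASIN group (3 samples) came from aged mice given CASIN, an inhibitor of the activity of the small GTPase Cdc42, as 4 intraperitoneal doses (25 mg/kg each, 24 h apart), and all groups were harvested on day 5. All cells had been viably frozen and thawed. Each sample was 1 library of 10x Genomics 3′ chemistry. The sources used here do not state that each sample was a separate animal, so that p-values measure the spread between these samples, which may be technical.

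Imprinted genes are read from the maternal or the paternal copy alone, and DNA methylation that differs between both copies marks which one is read. In the blood system they are known as a group of genes that is high in long-term stem cells and falls as these cells begin to divide and differentiate, and several of them restrain growth. Meg3, Rian and Mirg are RNAs of the maternal copy of the Dlk1-Meg3 domain and give rise to a large cluster of microRNAs, which is known to dampen growth signalling and mitochondrial activity in stem cells. H19, also maternal, limits signalling by insulin-like growth factors (IGF). Kcnq1ot1 is a paternal RNA antisense to Kcnq1 that silences its neighbours, among them the cell cycle inhibitor Cdkn1c. Ndn encodes necdin, a protein that restrains cell growth and is tied to stem cell quiescence. Grb10 encodes an adaptor that binds the insulin and IGF receptors and dampens their signal. Impact encodes an inhibitor of Gcn2, a kinase that slows protein synthesis under amino acid stress.

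In the mouse genome of the count tables (GRCm38), Meg3 (ENSMUSG00000021268) lies on the plus strand of chromosome 12 from 109541001 to 109571726. Mirg (ENSMUSG00000097391) lies downstream on the same strand, from 109729764 to 109749460, and Rian between both, from 109603940 to 109661716. The 208460 bases from the start of Meg3 to the end of Mirg hold 54 annotated microRNA hairpins, and microRNAs are not captured by this assay. Ndn (ENSMUSG00000033585) lies on chromosome 7 from 62346569 to 62350262 on the plus strand. Grb10 (ENSMUSG00000020176) lies on the minus strand of chromosome 11, from 11930508 to 12038683. H19 (ENSMUSG00000000031) and Kcnq1ot1 (ENSMUSG00000101609) both lie on the minus strand of chromosome 7, from 142575529 to 142578143 and from 143203458 to 143296549. The whole of Kcnq1ot1 lies inside Kcnq1, which spans 143106362 to 143427042 on the plus strand. Whether the counting used the strand is not given in the sources used here.

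The promoters of Meg3 and Ndn, the members whose levels differed most firmly between young and aged mice, are shown beside that of Kcnq1ot1, whose level did not pass the test in any comparison between groups. Each is the 250 bases before the RefSeq start (GRCm38.p6), 5′ to 3′ on the strand of the gene, with every CG, the dinucleotide that carries DNA methylation, in capitals. The pair CG reads the same on both strands.
Meg3, chr12:109540746-109540995, plus strand: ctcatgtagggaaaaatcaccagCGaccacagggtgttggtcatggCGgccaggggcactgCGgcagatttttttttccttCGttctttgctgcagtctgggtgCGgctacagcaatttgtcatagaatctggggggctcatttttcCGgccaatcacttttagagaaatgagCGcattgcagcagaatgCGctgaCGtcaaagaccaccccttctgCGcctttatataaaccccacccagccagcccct
Ndn, chr7:62348027-62348276, plus strand: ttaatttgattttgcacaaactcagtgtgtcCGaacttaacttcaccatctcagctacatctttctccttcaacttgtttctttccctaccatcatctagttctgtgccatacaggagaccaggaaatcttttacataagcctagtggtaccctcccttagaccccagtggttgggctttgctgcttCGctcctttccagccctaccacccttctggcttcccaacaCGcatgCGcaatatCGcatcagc
Kcnq1ot1, chr7:143296548-143296797, minus strand: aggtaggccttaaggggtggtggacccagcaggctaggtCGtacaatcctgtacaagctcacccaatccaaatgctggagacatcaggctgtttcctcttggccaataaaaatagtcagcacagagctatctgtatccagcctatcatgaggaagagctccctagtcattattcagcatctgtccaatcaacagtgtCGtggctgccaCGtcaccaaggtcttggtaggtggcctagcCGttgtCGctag
The Meg3 promoter holds 10 CG, and 37.8% of the 32851 mouse promoters of the same length hold at least as many. The promoters of Ndn and Kcnq1ot1 hold 5 each, and 55.6% of all promoters hold at least as many. No methylation was measured here, so these counts describe the sequence alone.

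After the filters of the study, 15856 of 32387 barcodes remained, with 17555578 to 35118707 UMIs (unique molecular identifiers, each a counted RNA molecule) per library. Batch 1 held young 1 and 2, aged 1 and CASIN 1 and 2, and batch 2 held young 3, aged 2 and 3 and CASIN 3. The median mitochondrial share of the kept cells was 2.65% to 3.49% in the libraries of batch 1 and 5.03% to 7.0% in those of batch 2. The gate genes Kit and Ly6a together had 219 to 406 UMIs per 1000000 UMIs of the same cells (CPM) over all LSK cells. Libraries shared the barcodes of 125 cells, at most 16 between any pair. Cells were clustered without the imprinted genes, and clusters were named "-like" by markers of the study. The HSC-1-like class (4079 cells, 278 to 953 per library, median 9937 UMIs) was named by markers of the HSC-1 cluster of the study. It joins clusters 0 and 2, described below, with 4 and 13 of these markers among their 30 leading genes. The LMPP-like class (3459 cells, median 12992 UMIs) holds lymphoid-primed progenitors.

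Meg3, Ndn, Grb10 and Mirg had their RNA concentrated in the HSC-1-like cells, whereas Impact and Kcnq1ot1 were spread over all subsets. The study had already described a higher level of Meg3 in its own HSC-1 cluster of these data. HSC-1-like cells made up 25.7% of the cells and held 20.8% of all UMIs, but 57.0% of the Meg3, 53.9% of the Mirg, 52.1% of the Ndn and 50.9% of the Grb10 UMIs. For Impact and Kcnq1ot1 the shares were 28.0% and 24.5%. Only 154 UMIs of Mirg and 34 of H19 were counted in all 9 libraries, 24 of the latter in HSC-1-like cells, against 6619 of Meg3, 3315 of Ndn, 5713 of Grb10, 8097 of Impact and 64130 of Kcnq1ot1.

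The level of Meg3 was 78.0 ± 35.3 CPM (SD over 9 libraries) in HSC-1-like cells. It was next in the interferon-responding MP-1-like cells (59.0 ± 44.1), the HSC-3-like cells with MHC class II genes (58.7 ± 26.2), the HSC-2-like cells with Fos and Jun (58.7 ± 42.8) and the MPP1-like cells (44.4 ± 35.1). The SDs of these 5 subsets overlapped between neighbours in this order, and they also hold the differences between groups and batches. MPP3-like cells had 30.8 ± 30.7, cluster 10, which is led by the megakaryocyte genes Pf4 and Itga2b, had 20.4 ± 17.9, and LMPP-like cells had 9.70 ± 7.66 CPM. The cycling CC-1-like and CC-2-like cells had 3.38 ± 3.79 and 7.91 ± 9.27 CPM. None of the 84 MP-3-like cells, which carry neutrophil granule genes, held a Meg3 UMI. At their low depth (median 2536 UMIs), this limits the share of cells with a UMI to 4.37% (upper limit of the 95% Wilson interval, counting error only) and not the share that expresses the gene. The mean in HSC-1-like cells was 8.03 times that in LMPP-like cells, and it was higher in 9 of 9 libraries. These levels are a description without a test, since the subsets come from the same cells.

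Ndn and Grb10 had a larger ratio of HSC-1-like to LMPP-like cells than Meg3. Ndn had 38.2 ± 19.7 CPM in HSC-1-like, 31.2 ± 13.8 in HSC-3-like, 30.1 ± 24.4 in HSC-2-like, 25.6 ± 19.6 in MP-1-like cells, 23.9 ± 20.1 in cluster 10 and 3.13 ± 1.80 in LMPP-like cells. Grb10 had 61.8 ± 31.3 CPM in HSC-1-like, 53.8 ± 31.2 in MPP1-like, 51.6 ± 32.8 in HSC-3-like cells, 49.1 ± 29.6 in cluster 10 and 3.81 ± 2.71 in LMPP-like cells. The ratio of HSC-1-like to LMPP-like cells was 12.2 for Ndn and 16.2 for Grb10, each with the higher value in 9 of 9 libraries. In both genes the first 4 or 5 subsets overlapped within their spread, and LMPP-like cells had far lower means. For Ndn, the spread of cluster 10 over libraries reached that of LMPP-like cells. Its level was still higher in cluster 10 in 9 of 9 libraries, with a ratio of means of 7.63. Impact, in contrast, had 52.1 ± 17.9 CPM in HSC-1-like and 37.7 ± 7.38 in LMPP-like cells, with its highest mean in MPP1-like (64.5 ± 35.6) and its lowest in MP-3-like cells (15.4 ± 13.7). Kcnq1ot1 had 344 ± 180 CPM in HSC-1-like and 278 ± 134 in LMPP-like cells, and was highest in MPP1-like cells (550 ± 296), whose markers include the nuclear RNAs Malat1 and Neat1 and which had a low depth (median 6404.5 UMIs) and the largest median mitochondrial share (6.33%).

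**Figure D1:**
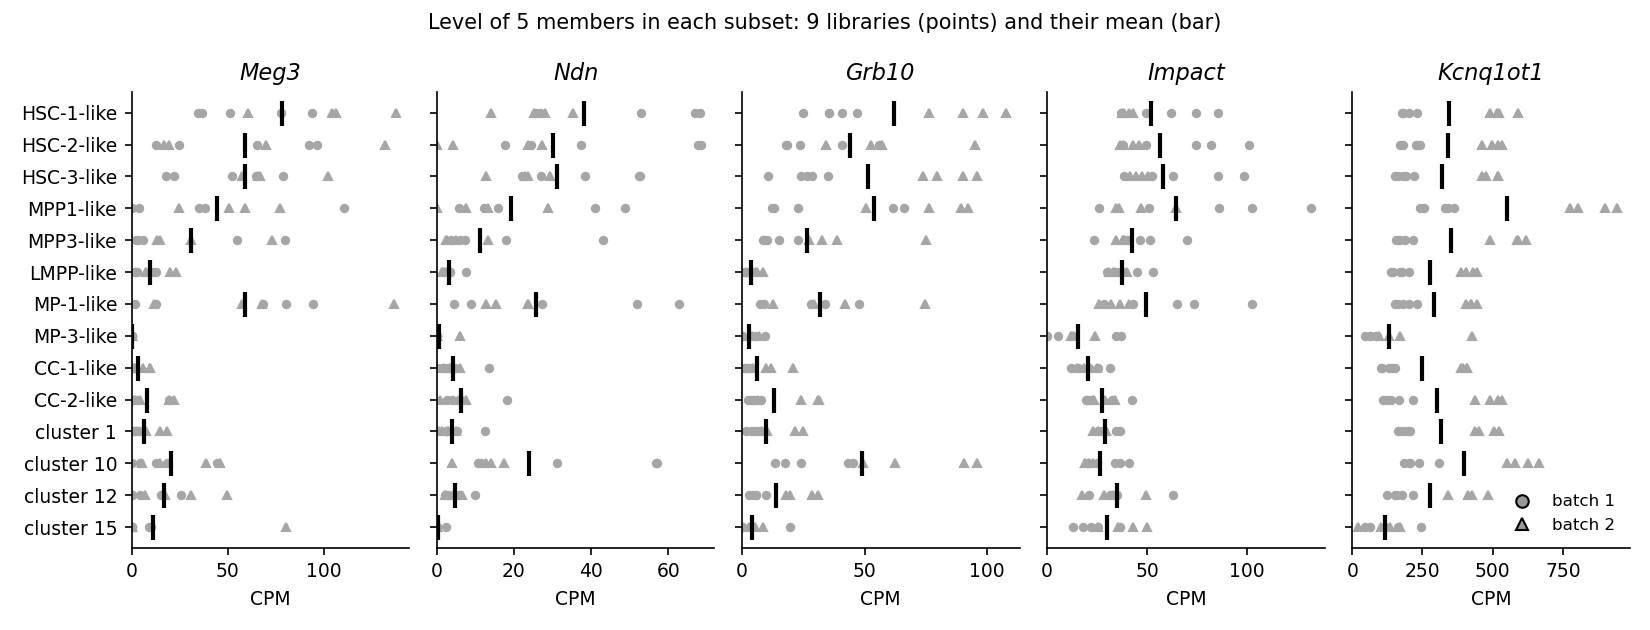
Level of 5 members in CPM (x axis) in each subset of LSK cells (y axis). Each grey point is 1 of 9 libraries, with circles for batch 1 and triangles for batch 2, and the black bar is their mean. Meg3, Ndn and Grb10 have higher means in the HSC-like subsets than in LMPP-like and cycling cells, although Grb10 reaches 24.2 to 31.2 CPM in CC-2-like cells of 3 libraries of batch 2, while Impact and Kcnq1ot1 have similar levels in most subsets.

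A UMI of Meg3 was found in 24.7% of the HSC-1-like cells (95% Wilson interval 23.4% to 26.0%), of Ndn in 30.9%, of Grb10 in 42.4%, of Impact in 37.8%, of Kcnq1ot1 in 82.9%, of Mirg in 1.62% and of H19 in 0.490%. In LMPP-like cells, which had more UMIs per cell, the shares were 4.37% for Meg3, 3.76% for Ndn and 3.5% for Grb10. Cluster 15 (125 cells, median 14619 UMIs) was left unnamed. Its leading genes mix Ly6c2, Lgals3, Irf8 and F13a1 with the B cell genes Cd79a and Ebf1, and 6 of the first 30 are myeloid progenitor markers of the study. There the shares were 2.40%, 0.80% and 4.00%. The 3 cells of cluster 15 with Meg3 came from 3 CASIN libraries and held 1, 4 and 15 of its UMIs, whereas those with Ndn or Grb10 held at most 2. The part of free RNA in these shares was not tested. Within HSC-1-like cells Meg3 was the most uneven of these 3 genes. Among the 4079 cells, 3073 had none of its UMIs, 278 had at least 5, 68 had at least 10 and the highest had 28. The 40 cells with the most Meg3 held 16.7% of its UMIs, against 8.34% for Ndn and 7.60% for Grb10 in their own top 40 cells.

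HSC-1-like cells with Meg3 more often held Ndn and Grb10, and also Impact and Kcnq1ot1. After each HSC-1-like cell had been thinned to 4000 UMIs, Ndn was found in 18.7% of 707 cells with Meg3 and in 13.8% of 3332 cells without it, and Grb10 in 27.4% and 19.9%. Impact was found in 20.2% of the cells with Meg3 and 17.4% of those without, and Kcnq1ot1 in 67.8% and 61.5%. Each of these shares was higher in the cells with Meg3 in 8 of 9 libraries, so that the pattern was not particular to Ndn and Grb10. Mirg, which lies downstream of Meg3 on the same strand, was found in 26 thinned cells, and 16 of these (61.5%) also held Meg3, against 17.2% of the cells without Mirg. This share was higher in the cells with Mirg in 4 of 9 libraries, and several libraries held no thinned cell with Mirg. Grb10 was found in 22.2% of the cells with Ndn and 21.1% of those without, and was higher in the cells with Ndn in 7 of 9 libraries. These shares are pooled over both batches, between which Ndn and Grb10 differed in opposite directions. They also pool both clusters of the class, described below, and in young libraries Meg3, Ndn and Grb10 were all lower in cluster 0 than in cluster 2. The part of this mixture in the shares was not tested.

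Across the 14 subsets, the Pearson correlation of log2 CPM was 0.94 between Ndn and Grb10, 0.92 between Meg3 and Impact and 0.86 between Meg3 and Ndn. Of 9681 genes with at least 10 CPM in a subset, those most like Meg3 were Prnp (r = 0.98), Maff, Gm42517, Art4 and Smagp. The genes most like Ndn were Jam3 (r = 0.98), which encodes a junctional adhesion molecule, Ocln, Mtss1l, Phactr1 and Npdc1, and those most like Grb10 were Mpzl1 (r = 0.99), Klf9, Scarf1, Cenpt and Myo1d. These subsets share libraries and differ in depth and in the share of cycling cells, so that the values are a description over 14 points.

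Over all LSK cells, Ndn rose in aged over young mice, and Meg3 and Ndn rose in CASIN over young mice. Young 1, 2 and 3 had 8.77, 7.46 and 5.25 CPM of Ndn, aged 1, 2 and 3 had 42.7, 11 and 9.17, and CASIN 1, 2 and 3 had 31.7, 20.2 and 18.1. All aged and CASIN libraries lay above all young ones, and aged 1 stood far above the other aged libraries. Aged over young gave a log2 fold change of 1.72 (SE 0.34, adjusted p = 0.0272 from edgeR's quasi-likelihood test with a batch term), with 2.41 within batch 1 and 0.96 within batch 2. In CASIN over young it was 1.74 (SE 0.33, edgeR adjusted p = 0.0248), with 1.65 and 1.79 within the batches.

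Meg3 had 7.69, 6.42 and 25.5 CPM in young, 49.1, 36.1 and 35.7 in aged and 44.8, 22.8 and 72.4 in CASIN libraries. The aged libraries lay above all young ones, whereas CASIN 2 lay below young 3. Aged over young gave 1.65 on the log2 scale (SE 0.43, edgeR adjusted p = 0.0668) and did not pass the threshold of 0.05, with 2.81 within batch 1 and 0.51 within batch 2. In CASIN over young it was 1.91 (SE 0.44, edgeR adjusted p = 0.0434), with 2.24 and 1.5.

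Of the 6 members that passed the filter on low counts over all LSK cells (all but H19 and Rian), 1 was higher in aged and 2 in CASIN than in young mice and none was lower, where 3.59% and 3.80% of the 13642 genes tested were higher. Impact (log2 fold change 0.59 in aged and 0.56 in CASIN over young, edgeR adjusted p = 0.0971 and 0.104), Grb10 (0.70 and 0.97, adjusted p = 0.280 and 0.141) and Mirg (0.86 and 1.98, adjusted p = 0.425 and 0.0730) did not pass. Kcnq1ot1 had log2 fold changes of 0.06 and 0.07 (SE 0.12 for both). The calls over all LSK cells rested on few libraries. Ndn in aged over young missed the threshold without young 1 (edgeR adjusted p = 0.111), young 2 (0.115), aged 1 (0.0982, log2 fold change 0.90) or CASIN 1 (0.0583). In CASIN over young, Ndn and Meg3 missed it without young 1, young 2, CASIN 1 or CASIN 3 (adjusted p of 0.0922 to 0.203). Without young 3, Meg3 (2.31, edgeR adjusted p = 0.0179) and Impact (0.88, adjusted p = 0.0256) passed in aged over young as well, and 4 members passed in CASIN over young without young 3 or without aged 1. More genes of any kind passed there too, in either direction. In aged over young they were 945 of 13905 without young 3, against 560 of 13642 with all libraries. In CASIN over young they were 1447 of 13905 without young 3 and 1584 of 13858 without aged 1, against 582 of 13642. HSC-1-like cells, in which both genes are high, made up 15.4%, 13.3% and 23.1% of the cells in young, 35.2%, 28.3% and 26.1% in aged and 27.8%, 24.2% and 39.4% in CASIN libraries. In sums over all LSK cells, fewer cells of a type and less RNA per cell cannot be told apart.

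Within HSC-1-like cells, Meg3 and Ndn rose in aged and in CASIN over young mice. The summed level of the HSC-1 markers was also higher in these groups in both clusters of the class, with values given below. A different mix of cells within the class and more marker RNA per cell cannot be told apart here, and their part in these rises was not tested. Meg3 had 36.7, 34.3 and 60.4 CPM in young, 77.5, 106 and 104 in aged and 93.8, 50.9 and 138 in CASIN libraries. All aged libraries lay above all young ones, and CASIN 2 lay between young 2 and young 3. Aged over young gave a log2 fold change of 0.99 (SE 0.19, edgeR adjusted p = 0.00809), with 1.20 within batch 1 and 0.86 within batch 2, and CASIN over young gave 1.14 (SE 0.19, edgeR adjusted p = 0.00173), with 1.05 and 1.28. Without aged 1, the first was 0.76 and missed the threshold (edgeR adjusted p = 0.0989).

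Ndn had 25.7, 26.7 and 14 CPM in young, 68.3, 28.0 and 25.1 in aged and 67.0, 53.1 and 35.4 in CASIN HSC-1-like cells. In each batch every aged and CASIN library lay above every young one, while across the batches aged 3 lay below young 1 and 2. It rose by 1.22 on the log2 scale in aged (SE 0.17, edgeR adjusted p = 0.00119, 1.45 and 0.98 within the batches) and by 1.31 in CASIN over young mice (SE 0.16, edgeR adjusted p = 0.000282, 1.22 and 1.43).

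Impact (ENSMUSG00000024423, plus strand of chromosome 18 from 12955852 to 12992950) had 37.0, 49.6 and 38.6 CPM in young, 74.6, 42.9 and 37.7 in aged and 62.2, 85.6 and 40.8 in CASIN HSC-1-like cells. Its high values all came from batch 1, and the libraries of batch 2 lay between 37.7 and 42.9 CPM in all 3 groups. It rose in CASIN over young (log2 fold change 0.60, SE 0.18, edgeR adjusted p = 0.0408), by 0.80 within batch 1 and 0.18 within batch 2, and did not pass in aged over young (0.56, adjusted p = 0.0940). The call in CASIN over young was lost without young 1 (0.38, adjusted p = 0.233), young 2 (0.64, 0.10), aged 2 (0.60, 0.0511), CASIN 2 (0.41, 0.198) or CASIN 3 (0.68, 0.0832).

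Grb10 and Kcnq1ot1 passed in neither comparison in HSC-1-like cells. Grb10 had 35.6, 25.0 and 98.3 CPM in young, 40.9, 76.2 and 90.1 in aged and 47.0, 35.6 and 108 in CASIN libraries, so that batches differed far more than groups. Its log2 fold change was 0.12 in aged (SE 0.17, edgeR adjusted p = 0.750) and 0.36 in CASIN over young (SE 0.16, adjusted p = 0.163). Beside these results, the summed level of 4 nuclear RNAs in the same cells was 18723 to 26165 CPM in young, 23698 to 39579 in aged and 22332 to 31554 in CASIN libraries. The summed level of 8 stromal genes was 8.03 to 117 CPM, 11.8 to 14.5 and 14.5 to 81.0, and that of 6 red cell genes 20.9 to 80.1, 14.6 to 42.9 and 23.0 to 47.7, so that the groups overlapped. That of 5 endothelial genes was 2.09 to 5.28, 1.98 to 13.4 and 6.14 to 10.9, with CASIN above young in every library, and that of 6 lymphocyte genes was 26.0 to 84.3, 12.9 to 46.0 and 10.6 to 31.3. A single gene was at 0 in each of the red cell and lymphocyte lists, and the part of these RNAs in the results was not tested. Of the 5 members tested in this class (not Mirg, H19 or Rian), 2 were higher in aged and 3 in CASIN than in young mice, and 5.28% and 8.31% of the 11567 genes tested were higher.

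**Figure D2:**
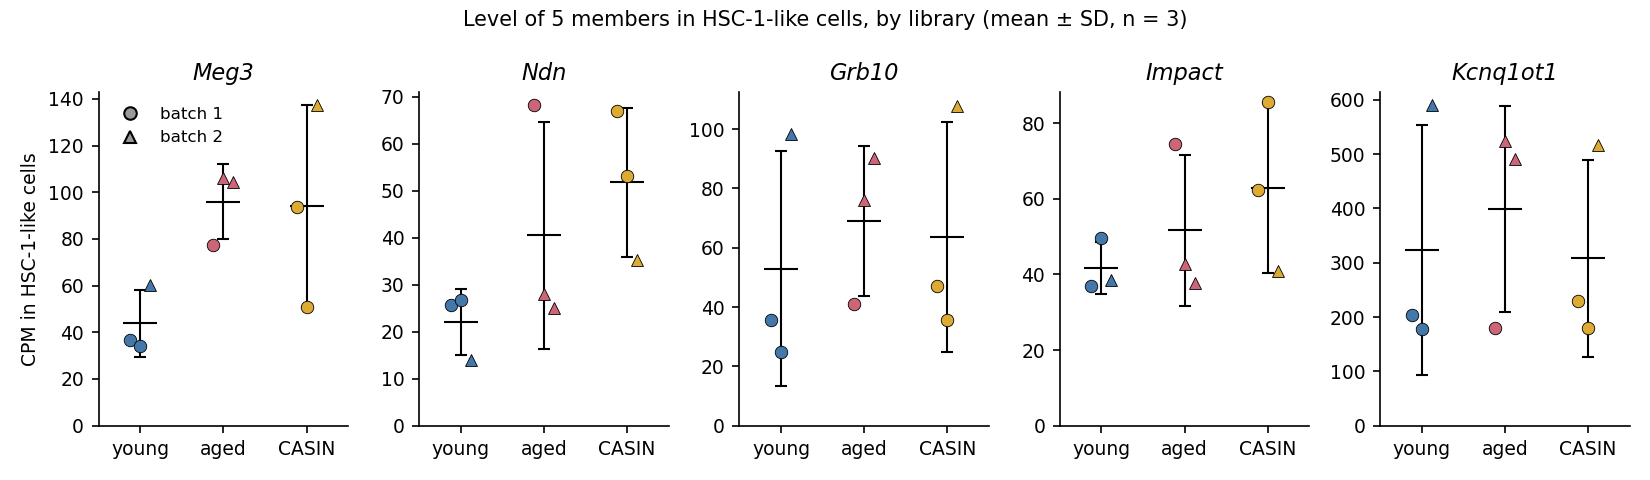
Level of 5 members in HSC-1-like cells in CPM (y axis) by group (x axis). Each point is 1 library, with circles for batch 1 and triangles for batch 2, and the black bars are the mean ± SD (n = 3 per group). The aged Meg3 values all lie above the young ones, while the values of Grb10 and Kcnq1ot1 separate by batch.

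Between CASIN and aged mice, edgeR called none of the members and no other gene (0% of the genes tested), either over all LSK cells or in HSC-1-like cells. In HSC-1-like cells the log2 fold change of CASIN over aged was 0.16 for Meg3 (SE 0.18), 0.09 for Ndn (SE 0.15), 0.25 for Grb10 (SE 0.16), 0.05 for Impact (SE 0.18) and 0.12 for Kcnq1ot1 (SE 0.11). Within batch 1 the values of Meg3 and Ndn were -0.15 and -0.23, and within batch 2 they were 0.42 and 0.45, so that the direction differed between the batches. At an unadjusted p below 0.05, edgeR gave 439 genes over all LSK cells, with Mirg as the only member among them (log2 fold change 1.12, SE 0.48), and 471 in HSC-1-like cells, none of them a member. DESeq2 called 0 and 2 genes, none of them a member. A fit of the 4 libraries of batch 2 alone, chosen after the data had been seen, called 2.26% of 13667 genes over all LSK cells, and gave 1.01 for Meg3 (edgeR adjusted p = 0.000130), 0.84 for Grb10 (adjusted p = 0.00353) and 1.76 for Mirg (adjusted p = 0.0194). It holds 1 CASIN and 1 young library, so that its spread comes from aged 2 and aged 3 alone, and these values compare CASIN 3 with those libraries rather than the groups. The changes of aged and of CASIN over young share the young libraries and are not independent.

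Some of the smaller subsets also had members past the threshold. In the 13 other subsets, 14 of the changes of members passed, all of them higher than in young mice, in HSC-2-like, HSC-3-like and MP-1-like cells and in cluster 10. In HSC-2-like cells, Meg3 had 24.5, 12.4 and 19.1 CPM in young, 92.3, 70.1 and 16.9 in aged and 96.2, 65.0 and 132 in CASIN libraries. Its log2 fold change was 2.01 in aged (SE 0.40, edgeR adjusted p = 0.00314) and 2.36 in CASIN over young (SE 0.38, adjusted p = 0.000428), where 4.93% and 5.49% of all genes were higher. Ndn (1.75 and 1.46, edgeR adjusted p = 0.00421 and 0.00871) and Impact (0.86 and 0.91, adjusted p = 0.0363 and 0.0114) also rose in both, and Grb10 rose in CASIN over young (1.27, adjusted p = 0.00880). Young 3 gave only 18 HSC-2-like cells, with 5 UMIs of Meg3 and none of Ndn.

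In MP-1-like cells (13 to 49 per library), Meg3 had 1.51, 12.5 and 11.8 CPM in young, 94.3, 68.0 and 57.3 in aged and 80.4, 68.4 and 136 in CASIN libraries. The groups did not overlap with the young one, although the young values rest on 1, 7 and 2 UMIs. The log2 fold change was 3.17 in aged (SE 0.53, edgeR adjusted p = 0.00190) and 3.67 in CASIN over young (SE 0.47, adjusted p = 0.000110). Of all genes, 1.53% and 2.43% were higher in these comparisons. Meg3 passed the filter on low counts here only through aged and CASIN libraries, so these tests are no support for its rise. Grb10 gave 2.08 in CASIN over young (edgeR adjusted p = 0.0122). In cluster 10, Ndn had 11.4, 10.6 and 3.90 CPM in young, 56.9, 14.1 and 12.8 in aged and 57.0, 31.1 and 17.5 in CASIN libraries. It rose by 2.11 in aged (SE 0.33, edgeR adjusted p = 0.00482) and by 2.01 in CASIN over young (SE 0.31, adjusted p = 0.00470). Of all genes, 1.05% and 0.948% were higher in these comparisons. Meg3 gave 3.12 in CASIN over young (edgeR adjusted p = 0.0228), with 8, 0 and 7 UMIs in young and 42, 14 and 57 in CASIN libraries. It passed the filter on low counts here only through aged and CASIN libraries, so this test is no support for its rise. In HSC-3-like cells only Meg3 in CASIN over young passed (1.24, SE 0.29, edgeR adjusted p = 0.0283), where 1.51% of genes were higher. No member passed in MPP1-like, MPP3-like, LMPP-like, MP-3-like, CC-1-like or CC-2-like cells or in clusters 1, 12 and 15. The count of 14 was 7 without young 1, 6 without young 2 and 23 without young 3. No share over all genes of these subsets is given for the fits that leave out a library, so these counts are a description alone. Over all LSK cells, the genes of any kind past the threshold in aged over young were 31 of 13851, 32 of 13841 and 945 of 13905 in the same settings.

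**Figure D3:**
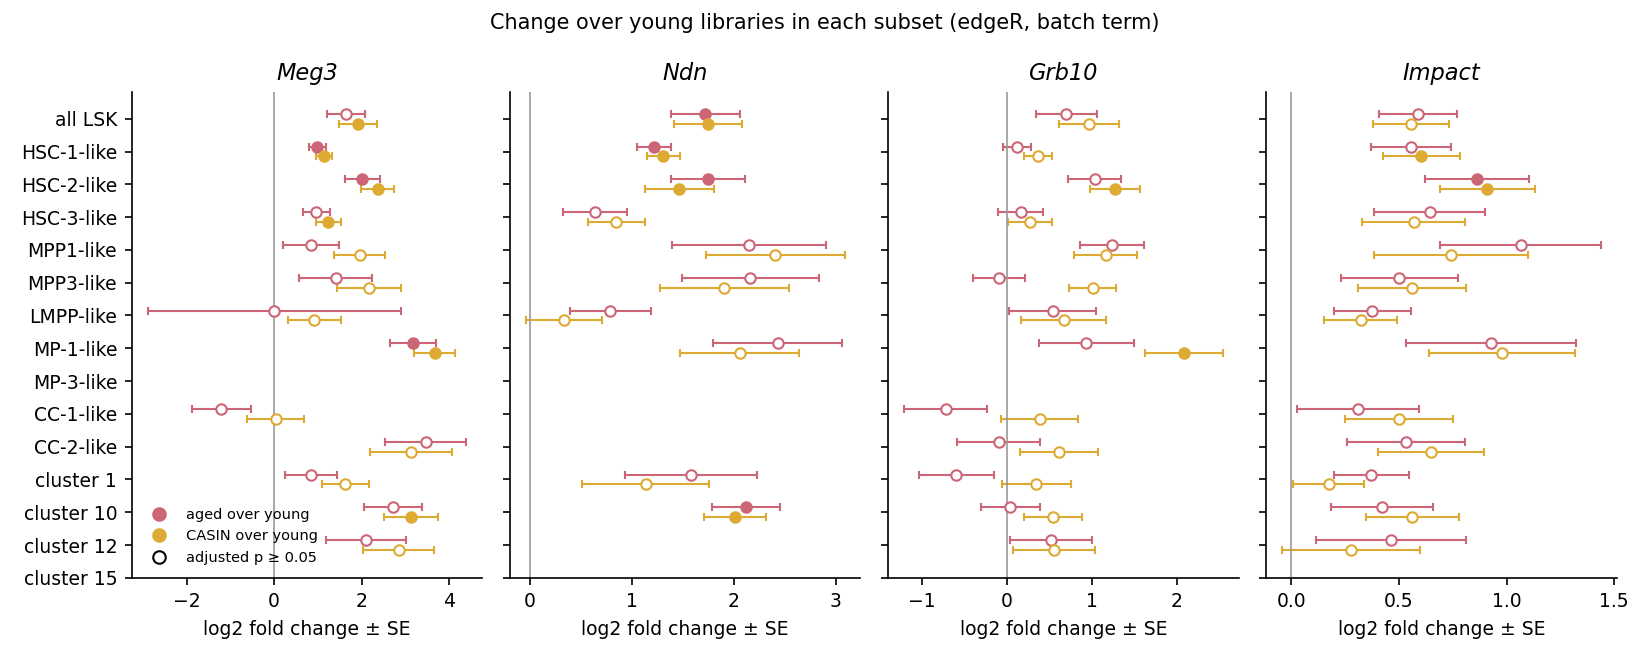
Log2 fold change over young libraries (x axis, ± SE from edgeR with a batch term) of 4 members in all LSK cells and in each subset (y axis), in red for aged and in yellow for CASIN. Filled points have an adjusted p below 0.05 and open points do not, and a missing point did not pass the filter on low counts. The SE was taken from the fold change and its F statistic and is unreliable where the fold change is near 0, as for Meg3 in LMPP-like cells. Filled points of Meg3 and Ndn lie to the right of 0 in both the HSC-1-like and the HSC-2-like subset.

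In LMPP-like cells, where no member passed, the Meg3 levels were 1.83, 2.56 and 19.7 CPM in young, 11.1, 7.44 and 7.41 in aged and 12.5, 1.85 and 22.9 in CASIN libraries. The difference between both classes in the change of aged over young was 1.09 for Meg3 (SE 0.45, edgeR adjusted p = 0.245) and 0.42 for Ndn (SE 0.33, adjusted p = 0.635), and neither passed, nor did that of Ndn in CASIN over young (0.95, SE 0.30, adjusted p = 0.0571). That value passed without aged 1 (1.00, adjusted p = 0.0379) or aged 2 (0.98, adjusted p = 0.0407). In these fits 2.54% and 7.26% of 12084 genes differed. The changes are therefore not shown to differ between HSC-1-like and LMPP-like cells. The Meg3 value was -0.30 without young 3 and 1.83 without aged 1 (adjusted p = 0.0145).

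The HSC-1-like class consisted of cluster 0 (2457 cells, led by Hes1, Pdzk1ip1 and Esam) and cluster 2 (1622 cells, led by Nupr1, Ramp2, Sult1a1 and Vwf), and the rise of Meg3 lay in cluster 0. There Meg3 had 11.9, 7.14 and 19.4 CPM in young, 80.8, 56.4 and 50.5 in aged and 107, 44.9 and 116 in CASIN libraries, without overlap with the young values. In cluster 2 it had 99.4, 84.8 and 147 CPM in young, 70.3, 178 and 204 in aged and 76.8, 55.7 and 168 in CASIN libraries, and the groups overlapped. In each young library the level was thus far lower in cluster 0 than in cluster 2. The change over young was larger in cluster 0 than in cluster 2 by 2.24 on the log2 scale in aged (SE 0.29, edgeR adjusted p = 2.37e-05) and by 3.02 in CASIN mice (SE 0.28, adjusted p = 2.66e-08), where 0.529% and 1.18% of 10964 genes differed. These fits were chosen after the values had been seen, and leaving out each library gave 1.57 to 2.94 and 2.75 to 3.70, all past the threshold.

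Ndn showed a smaller difference of the same kind. It had 13.8, 12.9 and 9.70 CPM in young, 64.9, 16.2 and 14.9 in aged and 50.8, 43.9 and 22.6 in CASIN libraries in cluster 0. In cluster 2 it had 55.7, 52.4 and 23.2 CPM in young, 75.7, 45.2 and 44.0 in aged and 88.4, 60.5 and 53.2 in CASIN libraries. The difference between the clusters was 1.20 in aged (SE 0.28, edgeR adjusted p = 0.0258) and 1.09 in CASIN over young (SE 0.26, adjusted p = 0.0273). The first was lost without young 1, young 2 or aged 1 (0.60 to 1.04, adjusted p of 0.324 to 0.806), and the second without young 1, young 2, CASIN 2 or CASIN 3 (0.85 to 1.05, adjusted p of 0.0909 to 0.466). Grb10 did not pass (0.42 and 0.68, edgeR adjusted p = 0.578 and 0.0707), and its CASIN value passed without young 3 (1.02, adjusted p = 0.0184), aged 1 (0.66, 0.0311) or aged 3 (0.68, 0.0473). Beside this, the summed level of the fixed HSC-1 markers was 351 to 579 CPM in young, 829 to 2419 in aged and 1628 to 2071 in CASIN libraries in cluster 0. In cluster 2 it was 1573 to 1681, 3045 to 4122 and 3341 to 3781 CPM, and the part of these differences in the Meg3 and Ndn results was not tested. The share of the class in cluster 0 was 65.0% in young, 62.7% in aged and 55.5% in CASIN mice.

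**Figure D4:**
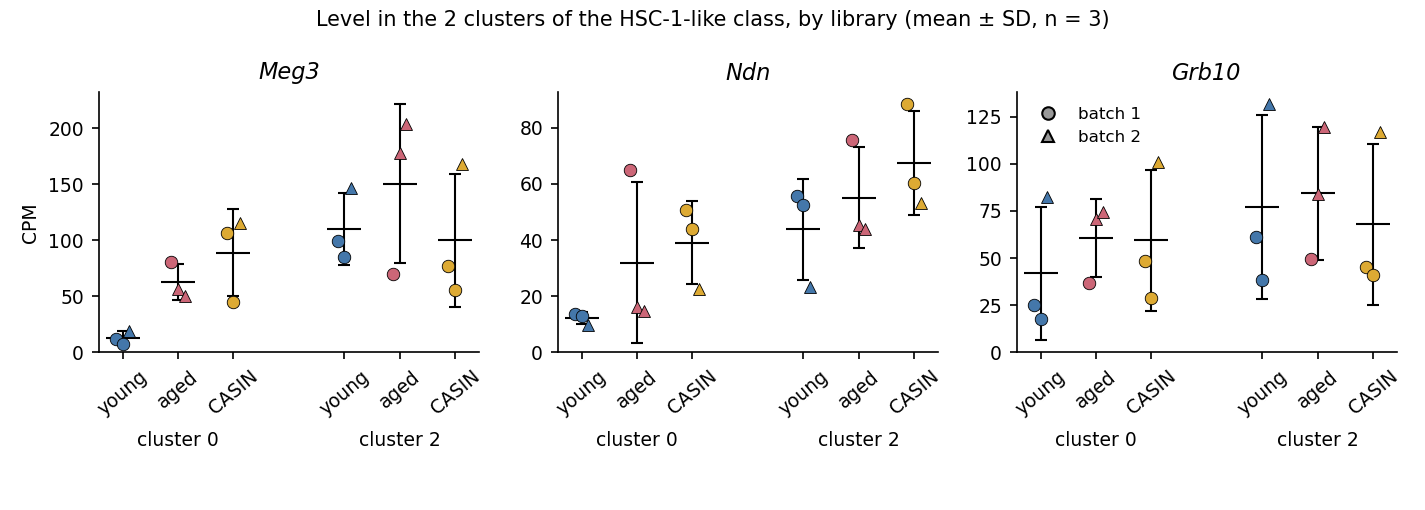
Level of Meg3, Ndn and Grb10 in CPM (y axis) in cluster 0 and cluster 2 of the HSC-1-like class, by group (x axis). Each point is 1 library, with circles for batch 1 and triangles for batch 2, and the black bars are the mean ± SD (n = 3 per group). Meg3 in cluster 0 lies between 7.14 and 19.4 CPM in the young libraries and between 44.9 and 116 CPM in all others.

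The share of cells with a UMI was compared as well. With all cells thinned to 4000 UMIs, the share of HSC-1-like cells with Meg3 was 12.3% ± 2.02 (SD, n = 3) in young, 17.9% ± 1.12 in aged and 19% ± 4.44 in CASIN mice. The young and aged values did not overlap, which gives p = 0.1 in a two-sided exact permutation test, the smallest that 3 libraries against 3 allow, and CASIN against young gave exact p = 0.2. Without thinning the shares were 17.5%, 24.6% and 27.9%. With thinning, the aged share exceeded the young one by 7.20 percentage points in batch 1 and by 3.30 in batch 2. For Ndn the thinned shares were 9.95% ± 3.02, 15.2% ± 6.05 and 18.7% ± 6.86 (exact p = 0.3 for aged and 0.2 for CASIN against young). Over all LSK cells, Meg3 was found in 4.11% ± 2.49, 9.63% ± 2.78 and 11.3% ± 4.39 (exact p = 0.1 and 0.2) and Ndn in 3.54% ± 0.644, 8.80% ± 6.61 and 9.83% ± 3.32 (exact p = 0.1 and 0.1). The share of Impact in HSC-1-like cells was 17.5% ± 2.31, 15.8% ± 6.16 and 21.8% ± 5.61 (exact p = 0.7 and 0.3), so that the mean share was lower in aged than in young mice while the fitted level was not.

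Mirg and H19 were at the limit of detection. Mirg had 4, 3 and 10 UMIs in young, 7, 13 and 24 in aged and 7, 4 and 82 in CASIN libraries over all LSK cells, so that CASIN 3 alone gave more than the other libraries together. H19 had 0, 1 and 0 UMIs in young, 6, 2 and 3 in aged and 9, 0 and 13 in CASIN libraries, with 24 of the 34 in HSC-1-like cells. A library without a UMI of H19 could still hold up to the level that 3 UMIs give, 0.0854 to 0.169 CPM in the 3 libraries concerned. H19 did not pass the filter on low counts. In the fit without this filter over all LSK cells, it did not pass the threshold in aged (edgeR adjusted p = 0.203) or CASIN over young (adjusted p = 0.0570).

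Of the 6 members tested over all LSK cells, 5 differed between the sequencing batches, in a fit where 71.8% of all genes did. Kcnq1ot1 had 146 to 209 CPM in the 5 libraries of batch 1 and 464 to 507 in the 4 of batch 2 (log2 difference 1.38, SE 0.10, edgeR adjusted p = 2.17e-06), without overlap. Grb10 was also higher in batch 2 (1.43, SE 0.29, edgeR adjusted p = 0.00153), as was Mirg (2.37, SE 0.44, adjusted p = 0.000867), whereas Ndn (-1.19, SE 0.28, adjusted p = 0.00334) and Impact (-0.57, SE 0.15, adjusted p = 0.00707) were lower, and Meg3 did not pass (0.72, SE 0.35, adjusted p = 0.0851). Malat1, a nuclear RNA, had 13633 to 18563 CPM in batch 1 and 17296 to 25808 in batch 2, beside the higher mitochondrial share given above, and their part in these differences was not tested. Of the comparisons within a batch, CASIN with young in batch 1 alone has more than 1 library in each group.

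In a fit with a batch by group term, chosen after the data had been seen, the change of aged over young differed between the batches over all LSK cells for Meg3 (batch 2 minus batch 1, -2.30, SE 0.43, edgeR adjusted p = 0.0320) and Grb10 (-1.92, SE 0.36, adjusted p = 0.0318), where 3.09% of all genes differed. For Ndn it was -1.44 (SE 0.39, edgeR adjusted p = 0.0842). In HSC-1-like cells no member differed, with -0.33 for Meg3 (edgeR adjusted p = 0.788) and -0.48 for Ndn (adjusted p = 0.603). The share of HSC-1-like cells was 35.2% in aged against 15.4% and 13.3% in young libraries of batch 1, and 28.3% and 26.1% against 23.1% in batch 2.

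The 5 members tested (not Mirg, H19 or Rian) were lower in LSK cells with cell cycle transcripts. Each cell, thinned to 4000 UMIs, was given scores from Seurat's gene lists for the S and G2/M phases, which hold none of the members. Cells without a score above 0 made up 54.7% to 67.3% of the cells in young, 65.1% to 82.3% in aged and 72.2% to 79.7% in CASIN libraries. Meg3 had 13.7, 11.2 and 35.9 CPM in young cells without a cycling score and 2.62, 1.81 and 10.1 in those with one. In aged mice the values were 64.0, 56.1 and 52.8 against 10.5, 14 and 9.24, and in CASIN mice 66.8, 33.9 and 95.4 against 12.1, 3.1 and 21.1. Meg3 was thus higher in the cells without a cycling score in 9 of 9 libraries, by 2.34 on the log2 scale (SE 0.10, edgeR with the library as a block, adjusted p = 5.27e-10). Ndn (1.58, SE 0.11, edgeR adjusted p = 6.09e-08), Grb10 (1.46, SE 0.11, adjusted p = 6.51e-08), Impact (0.72, SE 0.09, adjusted p = 2.10e-05) and Kcnq1ot1 (0.18, SE 0.04, adjusted p = 0.000781) were higher too, in a fit where 33.3% of 12018 genes were.

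Among HSC-1-like cells alone, the log2 differences were 1.20 for Meg3 (SE 0.18, edgeR adjusted p = 9.35e-07), 0.85 for Ndn (SE 0.15, adjusted p = 3.06e-05), 0.62 for Impact (SE 0.12, adjusted p = 7.91e-05) and 0.48 for Grb10 (SE 0.11, adjusted p = 0.00137), while Kcnq1ot1 did not pass (0.08, SE 0.06, adjusted p = 0.433). In this fit 11.8% of 9528 genes were higher in the cells without a cycling score. Each library held only 22 to 83 HSC-1-like cells with such a score. Meg3 and Ndn were higher without it in every library, though Meg3 by little in CASIN 1 (94.8 against 86.2 CPM) and CASIN 3 (138 against 133). Grb10 was higher in every library but CASIN 3 (107 against 131), and Impact in every library but aged 3 (36.6 against 43.1).

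**Figure D5:**
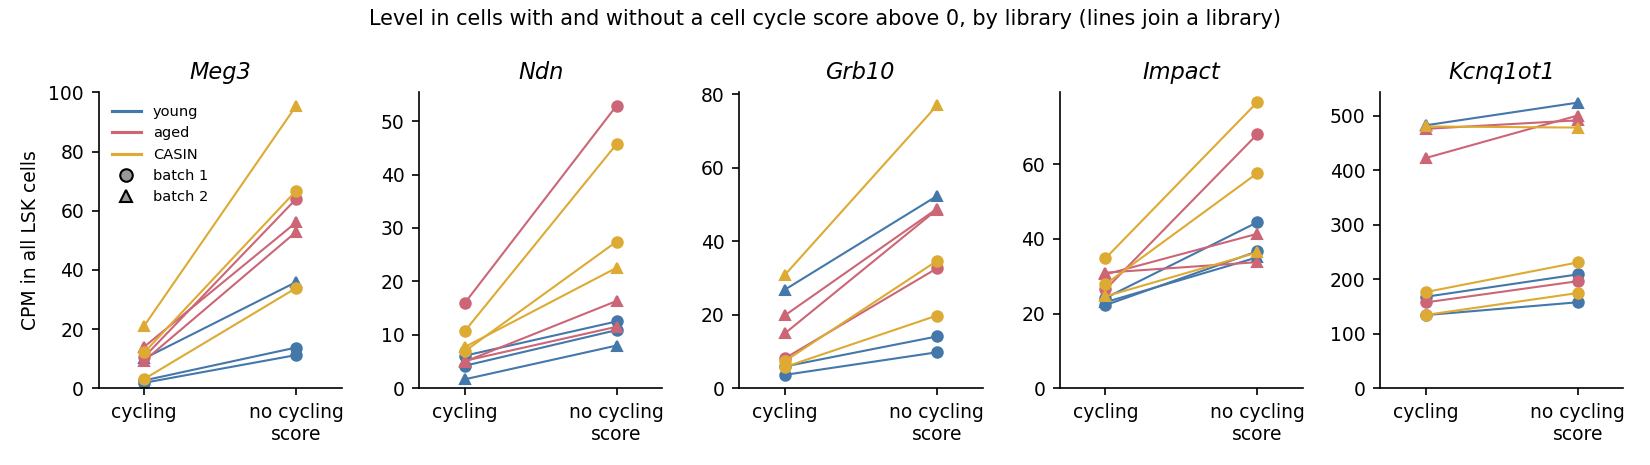
Level of 5 members in CPM (y axis) in LSK cells with and without a cell cycle score above 0 (x axis). Each line joins both values of 1 library, coloured by group, with circles for batch 1 and triangles for batch 2. All 9 lines of Meg3 rise towards the cells without a cycling score, and those of Kcnq1ot1 lie in 2 bands by batch.

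Among 63 other imprinted genes, few passed the threshold in aged over young mice. In sums over all LSK cells 37 passed the filter, and 4 of these were higher in aged than in young mice and none was lower, with a list median of 0.12 on the log2 scale against 0.01 over all genes, of which 3.59% were higher. The 4 were Asb4 (2.06, edgeR adjusted p = 0.0311), Snrpn (2.01, adjusted p = 0.0263), the zinc finger gene Zdbf2 (1.77, adjusted p = 0.0350) and Cdkn1c (1.33, adjusted p = 0.0120). In HSC-1-like cells 33 were tested, 5 were higher and none was lower, with a median of -0.01 against 0.01, where 5.28% of all genes were higher. Cdkn1c, which encodes a cell cycle inhibitor and lies next to Kcnq1ot1, had 61.8, 65.0 and 19.4 CPM in young, 93.6, 39.2 and 32.2 in aged and 97.9, 96.1 and 37.4 in CASIN HSC-1-like cells. It rose by 0.72 in aged (SE 0.13, edgeR adjusted p = 0.00520) and by 0.74 in CASIN over young (SE 0.12, adjusted p = 0.00143). Dlk1, the paternally expressed partner of Meg3, had 3.67, 0.581 and 14.6 CPM in young, 34.6, 35.8 and 16.7 in aged and 17.6, 11.5 and 30.8 in CASIN HSC-1-like cells and rose by 2.23 (SE 0.53, edgeR adjusted p = 0.0222) and 1.80 (SE 0.54, adjusted p = 0.0423). Snrpn, the small nuclear ribonucleoprotein gene of the domain that also holds Ndn, rose by 1.44 and 1.49 (edgeR adjusted p = 0.00728 and 0.00260), Asb4 by 1.81 and 1.88 (adjusted p = 0.0160 and 0.00809) and Zdbf2 by 1.48 in aged over young alone (adjusted p = 0.00794). Zdbf2 had 0, 2 and 105 UMIs in young and 12, 465 and 277 in aged HSC-1-like cells, so that its values in batch 1 rest on few UMIs. Young HSC-1-like cells also held few UMIs of Asb4 (4, 3 and 15), Dlk1 (16, 2 and 49) and Snrpn (15, 16 and 7). The Dlk1 change in aged over young was 4.10 within batch 1 and 0.91 within batch 2.

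In CASIN over young, 6 of the 33 were higher and 1 was lower in HSC-1-like cells, where 8.31% of all genes were higher. Besides Asb4, Snrpn, Cdkn1c and Dlk1 these were Zrsr1 (0.92, edgeR adjusted p = 0.0157) and B830012L14Rik (2.47, adjusted p = 0.0494). B830012L14Rik lies between Rian and Mirg on chromosome 12 from 109695586 to 109702587. It had 0, 0 and 3 UMIs in young and 2, 0 and 40 in CASIN HSC-1-like cells, so that nearly all its CASIN UMIs came from CASIN 3. The lower gene was Slc22a3 (-1.61, edgeR adjusted p = 0.00632), a transporter gene. With all LSK cells together 4 of 37 were higher (3.80% of all genes), namely Asb4 (2.03, edgeR adjusted p = 0.0318), Snrpn (2.02, adjusted p = 0.0236), Cdkn1c (1.33, adjusted p = 0.0108) and B830012L14Rik (2.79, adjusted p = 0.0397). The last had 1, 0 and 5 UMIs in young and 4, 1 and 56 in CASIN libraries.

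Of 36 genes of IGF and insulin signalling, the pathway that Grb10 and H19 restrain, 31 were tested in HSC-1-like cells. Of these, 1 rose in aged over young mice, against 5.28% of all genes, and 5 in CASIN over young, against 8.31%. In aged over young mice Pik3r1, a regulatory subunit of PI3-kinase, rose (0.49, edgeR adjusted p = 0.0377) and Igfbp4, an IGF-binding protein, fell by 0.80 on the log2 scale (adjusted p = 0.0447), with a list median of 0.06. The 5 in CASIN over young were Pik3r1 (0.72, edgeR adjusted p = 0.00248), the transcription factor Foxo1 (0.68, adjusted p = 0.00691), the receptor Igf1r (0.54, adjusted p = 0.0112), the adaptor Irs2 (0.64, adjusted p = 0.0499) and the mTOR subunit gene Rictor (0.45, adjusted p = 0.0262), and Igfbp4 fell by 0.92 on the log2 scale (adjusted p = 0.0104). In all LSK cells together, none of 32 passed in aged over young, and Foxo1 and Pik3r1 (0.45 each, edgeR adjusted p = 0.0465 and 0.0458) passed in CASIN over young. Neither list had a gene past the threshold between CASIN and aged mice.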

How the data were processed

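Single LSK cells were profiled with 10x Genomics 3′ chemistry in 9 samples, 3 per group. The deposited count tables hold UMI counts per gene and barcode, which the authors made with Cell Ranger 3.1.0 on mm10 (GRCm38), and the values carry no normalization. Whether counting used the strand is not given in the sources used here. The 8 genes and all lists were chosen with earlier results of these data known.

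The limits of the study were applied (at most 10% mitochondrial UMIs and 6000 genes, 1000 to 40000 UMIs, a residual of at most 0.4, genes in at least 3 cells). Cells were integrated by CCA in Seurat 5.3.0 on 2000 features without imprinted genes (30 dimensions) and clustered on 35 components at a resolution of 0.8, which gave 17 clusters. A cluster was named from at least 3 markers of the study among its 30 leading genes. Doublets were not removed in the main analysis. Scrublet's own threshold marked 67 cells (0.423%), and leaving out the 237 cells with the highest scores was an alternative. UMIs were summed per sample and subset and tested with edgeR 4.0.16 (quasi-likelihood test, TMM, filterByExpr, group and batch terms, all 9 samples, Benjamini-Hochberg adjustment over all genes tested, threshold 0.05), and the scripts were tested on simulated data. Shares of cells were compared after thinning to 4000 UMIs, which leaves out 332 shallower cells. Intervals and floors (3 UMIs) cover counting error only. Alternatives included DESeq2 1.42.0, other filters and each library left out. All 8 genes are reported, with the genes of both lists past the threshold and the 5 most alike genes.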

Additional observations from a re-analysis of the deposited data

Results flagged for a closer look

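The change of aged over young over all LSK cells differed between the sequencing batches for 2 members in a test of the difference itself. The log2 change in batch 2 minus that in batch 1 was -2.30 for Meg3 (SE 0.43, edgeR adjusted p = 0.0320) and -1.92 for Grb10 (SE 0.36, adjusted p = 0.0318). Batch 1 holds 1 aged library and batch 2 holds 1 young library, so that this difference and the difference between single libraries cannot be told apart.

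Within the HSC-1-like class, the changes over young differed between cluster 0 and cluster 2. The log2 change in cluster 0 minus that in cluster 2 was 2.24 for Meg3 (SE 0.29, edgeR adjusted p = 2.37e-05) and 1.20 for Ndn (SE 0.28, adjusted p = 0.0258) in aged mice. In CASIN mice it was 3.02 for Meg3 (SE 0.28, edgeR adjusted p = 2.66e-08) and 1.09 for Ndn (SE 0.26, adjusted p = 0.0273). These tests were added after the values of both clusters had been seen, and both sets of changes share the young libraries.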

How the results depend on the processing

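In HSC-1-like cells, the rises of Ndn, and that of Meg3 in CASIN over young, remained past the threshold whichever library was left out. Over all LSK cells, the calls of Ndn and Meg3 were lost without some of the libraries, as given above. All calls of members between groups over all LSK cells and in HSC-1-like cells were lost without the batch term, which was not tried for the other calls. Nearly all calls of other genes were lost with them. Without this term 0 of 13642 genes passed over all LSK cells. In HSC-1-like cells 3 of 11567 passed in aged and 12 in CASIN over young. The fits of single batches and of single clusters, the doublet limit and some of the fits that leave out a library were added after the data had been seen. The cause of the changes below was not tested. Counts such as 560 of 13642 in brackets give all genes past the threshold in either direction. Over all LSK cells, the count of members past the threshold in aged over young was 1 (560 of 13642). It was 2 with DESeq2 (1135 of 13642), 3 without the filter on low counts (1048 of 20940) and 0 without the batch term (0 of 13642). With only the 2 groups compared it was 0 (93 of 13180), with thinned cells 2 (432 of 12105) and with a mitochondrial limit of 20% 2 (957 of 14333). When a library was left out it was 0 to 3 (31 of 13851 to 945 of 13905). In CASIN over young the count was 2 (582 of 13642). It was 5 without the filter (1119 of 20940), 0 without the batch term (0 of 13642) and 0 with a mitochondrial limit of 5% (124 of 13157). In batch 1 alone it was 4 (2083 of 13755), and when a library was left out 0 to 4 (20 of 13841 to 1584 of 13858). In CASIN over aged (0) it was 3 in batch 2 alone. In HSC-1-like cells, the count in aged over young was 2 (851 of 11567). It was 0 without the batch term (3 of 11567), 1 with the limit of 5% (450 of 11119) and 0 in cluster 2 alone (326 of 10118). When a library was left out it was 1 to 3 (211 of 11771 to 1065 of 11809). CASIN over young gave 3 there (1607 of 11567), and 0 without the batch term (12 of 11567), 1 with the limit of 5% (818 of 11119) and 1 in cluster 2 alone (533 of 10118). The 14 calls in other subsets ranged from 6 to 23 when a library was left out, a description without a share over all genes of these subsets. The count for the difference between HSC-1-like and LMPP-like cells in the change of aged over young (0) ranged from 0 to 1. The 4 shares of cells without overlap between groups became 7 without thinning. No background over all genes is given for these shares, so both counts are a description alone.

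Number 2 spans the batches, and whether same-numbered samples were paired was not tested. The correlation of the deviations of same-numbered samples was 0.71 to 0.89 within a batch and -0.71 to -0.60 across batches. Samples of different number and group in the same batch gave 0.62 to 0.81, so that both ranges overlapped. With a replicate block in place of the batch term, 0 members passed in aged over young and 0 in CASIN over young, both over all LSK cells and in HSC-1-like cells. Of all genes, 0 of 13642 passed over all LSK cells in either comparison. In HSC-1-like cells 9 of 11567 passed in aged and 20 in CASIN over young. With this block, CASIN over aged turned to -0.017 for Meg3, -0.27 for Grb10, 0.14 for Impact and -0.52 for Kcnq1ot1 over all LSK cells, and to -0.10 for Meg3, -0.24 for Grb10 and -0.42 for Kcnq1ot1 in HSC-1-like cells, and Kcnq1ot1 in aged over young turned to 0.47 there.

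None of the other log2 values that changed sign had passed the threshold, except Meg3 in CASIN over young. Without the batch term, CASIN over aged was 0.15 for Impact and -0.42 for Kcnq1ot1 over all LSK cells, and -0.013 for Meg3, -0.095 for Grb10 and -0.34 for Kcnq1ot1 in HSC-1-like cells, where Kcnq1ot1 was 0.34 in aged and -0.0012 in CASIN over young. In batch 1 alone, CASIN over aged was -0.56 for Meg3, -0.74 for Ndn, -0.45 for Grb10 and -0.023 for Kcnq1ot1 over all LSK cells. In batch 2 alone, aged over young was -0.23 for Grb10 and -0.086 for Kcnq1ot1, and CASIN over young was -0.067 for Kcnq1ot1. With the mitochondrial limit of 5%, CASIN over aged was -0.27 for Ndn and -0.017 for Kcnq1ot1 over all LSK cells and -0.089 for Ndn in HSC-1-like cells, where Grb10 was -0.040 in aged over young. Over all LSK cells, CASIN over aged was -0.032 for Ndn and -0.020 for Kcnq1ot1 with thinned cells, and for Kcnq1ot1 -0.0090 with only the 2 groups compared and -0.024 with the limit of 20%. In cluster 2 alone, Grb10 was -0.19 in aged over young, Meg3 was -0.21 in CASIN over aged, and CASIN over young was -0.16 for Meg3, -0.11 for Grb10 and -0.13 for Kcnq1ot1. In cluster 0 alone Ndn was -0.022 in CASIN over aged. At a resolution of 0.4 Grb10 was -0.055 in aged over young. In HSC-1-like cells Impact was -0.0059 in CASIN over aged with only the 2 groups compared, and in cells gated by Procr it was -0.0089, with Kcnq1ot1 at 0.012 in aged over young.

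When a library was left out, values of both signs were found over all LSK cells for Grb10 (-0.012 to 1.28) and Kcnq1ot1 (-0.027 to 0.16) in aged over young, Ndn (-0.38 to 0.80), Impact (-0.18 to 0.14) and Kcnq1ot1 (-0.093 to 0.082) in CASIN over aged and Kcnq1ot1 (-0.051 to 0.15) in CASIN over young. In HSC-1-like cells they were found for Grb10 (-0.12 to 0.34) and Kcnq1ot1 (-0.13 to 0.014) in aged over young, Meg3 (-0.049 to 0.35), Ndn (-0.13 to 0.39) and Impact (-0.10 to 0.23) in CASIN over aged and Kcnq1ot1 (-0.058 to 0.11) in CASIN over young. The difference between HSC-1-like and LMPP-like cells in the change of aged over young ranged from -0.30 to 1.83 for Meg3, -0.75 to 0.083 for Grb10 and -0.00096 to 0.27 for Impact. Low depth left Mirg, H19 and the small subsets with too few UMIs for a firm comparison.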
